A study of Mus musculus with 4 samples.

Results

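A set of 8 genes of cholesterol synthesis and its control was followed through the RNA-seq of Gfi1b-deficient (KO) and control (WT) mouse hematopoietic stem cells (HSCs): Hmgcs1, Sqle, Idi1, Fdft1, Lss, Cyp51, Insig1 and Srebf2. They were picked by name, as Srebf2 and known targets of the factor it encodes, with earlier results of these data known, and are 8 of the 37140 genes counted in all 4 libraries. Genes of cholesterol uptake are not among the 8 and were described as a separate list.

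HSCs were sorted from bone marrow of C57Bl6 mice as Lin- cKit+ Sca1+ CD48- CD150+ cells, and a second sort took CD41low/CD9low HSCs, the population with low levels of these 2 megakaryocyte surface proteins. The study's results call the first population CD41+/CD9+ HSCs, while the sorting protocol in its methods does not name these 2 markers for it, so whether it excludes cells of the second is not settled by the sources used here. In both, marrow of several mice was pooled before sorting, so that each of the 4 groups is represented by 1 library. KO mice carried floxed Gfi1b alleles and a tamoxifen-inducible Cre recombinase expressed from the Rosa26 locus. This locus is active in many tissues, so the deletion was not limited to HSCs. The deletion was induced by tamoxifen, given 2 weeks before the experiment according to the RNA-seq methods. According to the methods the WT mice carried the Cre and 1 floxed allele (wt/fl) and also received tamoxifen, whereas the design text of the series describes controls without Cre. The sample titles read Gfi1 WT and Gfi1 KO, which is the name of the paralog of Gfi1b. That Gfi1b was the deleted gene is taken from the paper. Ages of the mice are not given in the sources used here.

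Cells make cholesterol from acetyl-CoA through the mevalonate pathway, which leads to the isoprenoids, squalene and, after ring closure, the sterols. Srebf2 encodes SREBP2, a transcription factor held in the endoplasmic reticulum while sterols are plentiful. When sterols run low it is carried to the Golgi, cut free and enters the nucleus, where it activates genes of synthesis and uptake, Insig1 and its own gene. Insig1 encodes a retention protein that holds the SREBP complex back, so it acts as a brake that its own target factor induces.

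The WT HSC library had a total of 50781007 counts on genes and the KO HSC library 41690708, while the CD41low/CD9low libraries were shallower, with 12732079 for WT and 19123185 for KO. A level of 3 counts stands for 0.0591, 0.072, 0.236 and 0.157 CPM (counts per 1000000 counts on genes) in these libraries. All 8 HSC markers on a list that holds Kit and Slamf1 were detected in every library, with Kit between 989 and 1262 CPM. Of 6 markers that the gate should exclude, Cd3e had 0 or 1 count in each library and Ly6g was below 1 CPM, whereas Itgam was at 9.09 to 33.9 CPM, Klrb1c at 6.205 to 12.5 CPM and Cd48 at 1.26 to 7.75 CPM. Gfi1b itself was at 182 CPM (WT) and 1197 CPM (KO) in HSCs and at 48 and 509 CPM in the CD41low/CD9low pair. These counts cover the whole gene and not the deleted exons separately, so they do not check the deletion.

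The stretches before the start of 4 members are shown, a pair with KO/WT ratios above 1.5 in CD41low/CD9low HSCs (Hmgcs1 and Insig1) and a pair without (Lss and Srebf2). They were taken from RefSeq for GRCm38.p6, the assembly of the mm10 counts, 5′ to 3′ in the direction of the gene and ending before both the RefSeq and the GENCODE start. Capitals mark TCACNCCAC, a form of the sterol regulatory element that SREBP2 binds, CCAAT, the box bound by NF-Y, which reads ATTGG on the other strand, and CACGTG, the E-box.
Hmgcs1 (chr13:119690101-119690350, plus strand): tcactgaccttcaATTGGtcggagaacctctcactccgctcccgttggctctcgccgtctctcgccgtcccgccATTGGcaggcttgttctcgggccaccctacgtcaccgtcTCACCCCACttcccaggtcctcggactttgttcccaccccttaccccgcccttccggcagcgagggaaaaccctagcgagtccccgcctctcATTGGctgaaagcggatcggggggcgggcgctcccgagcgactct
Insig1 (chr5:28071162-28071362, plus strand): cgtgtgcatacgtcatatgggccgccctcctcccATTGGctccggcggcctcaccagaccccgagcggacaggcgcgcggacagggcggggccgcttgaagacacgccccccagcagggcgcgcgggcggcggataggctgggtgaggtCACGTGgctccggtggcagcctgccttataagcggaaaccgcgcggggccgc
Lss (chr10:76531355-76531587, plus strand): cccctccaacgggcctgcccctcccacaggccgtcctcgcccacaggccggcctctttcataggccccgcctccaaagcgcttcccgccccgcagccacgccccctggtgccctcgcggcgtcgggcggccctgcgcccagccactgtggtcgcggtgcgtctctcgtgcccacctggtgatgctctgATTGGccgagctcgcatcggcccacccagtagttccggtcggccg
Srebf2 (chr15:82147019-82147180, plus strand): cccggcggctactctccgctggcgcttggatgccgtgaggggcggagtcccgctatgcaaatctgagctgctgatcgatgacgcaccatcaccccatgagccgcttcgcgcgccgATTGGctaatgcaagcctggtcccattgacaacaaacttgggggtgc

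The RefSeq promoter table held 6 of the 8 members (Srebf2, Insig1, Hmgcs1, Idi1, Lss and Cyp51). Over a window of 250 bases before and 50 after the RefSeq start, searched on both strands, TCACNCCAC was found in the Hmgcs1 promoter alone among these 6, with its first base at −137, and in 1.24% of all 32851 promoters. CCAAT was found in all 6, and in 37.4% of all promoters. The GC box GGGCGG was also in all 6 (35.7% of all promoters), and CACGTG was in 1, that of Insig1 at −101 (7.15%). AATC, the core of the motif known for Gfi1 proteins, was in 5 of the 6 and in 73.1% of all promoters, and the longer TAAATCAC, which holds AATC, was in none of the 6 and in 0.578% of all. Among the promoters of 15 other synthesis genes, 11 held CCAAT, 12 the GC box, 3 the E-box, 12 AATC and none TCACNCCAC or TAAATCAC. A match gives the letters only.

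In HSCs, the KO library had lower levels of all 8 genes than the WT library, with KO/WT ratios of normalized counts between 0.651 and 0.887. In CD41low/CD9low HSCs, 5 of the 8 (Insig1, Hmgcs1, Idi1, Sqle and Cyp51) were higher in the KO library, with ratios between 1.64 and 1.76. Srebf2 was at 1.10 there, Lss at 1.03 and Fdft1 at 0.780. With 1 library per group there is no test of genotype within a population, and each ratio is given with a 95% interval that covers counting error and not the variation between mice or sorts. Throughout, genes were counted as higher above a ratio of 1.5 and as lower below 0.6, the cutoffs of the study.

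The regulators were the most abundant members per kilobase of exon. Srebf2 (chr15:82147181-82205379, GRCm38) was at 225 CPM in WT HSCs, 197 in KO HSCs, 287 in WT CD41low/CD9low HSCs and 315 in KO CD41low/CD9low HSCs. Its KO/WT ratio was 0.887 (95% counting interval 0.862 to 0.912) in HSCs, against 1.10 (1.05 to 1.14) in CD41low/CD9low HSCs. Both CD41low/CD9low libraries thus lay above both HSC libraries for Srebf2, which held for no other member.

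Insig1 (chr5:28071363-28078662) was at 94.8, 79.2, 61.0 and 99.9 CPM in the same order. Its ratio was 0.846 (0.810 to 0.885) in HSCs, against 1.64 (1.51 to 1.78) in CD41low/CD9low HSCs. The WT CD41low/CD9low library was the lowest of the 4 and the KO library of that population the highest, just above the WT HSC library.

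Of the mevalonate enzymes, Hmgcs1 (chr13:119690379-119708260) encodes the cytosolic HMG-CoA synthase, an early step of the pathway. It was at 83.4, 70.9, 41.6 and 70.8 CPM, with ratios of 0.862 (0.822 to 0.903) and 1.70 (1.54 to 1.89). Again the WT CD41low/CD9low library stood lowest, while both KO libraries were close to each other. Idi1 (chr13:8885501-8892451), the isomerase that makes the second isoprenoid building block, had the fewest counts of the 8, from 663 down to 81 per library. It was at 13.1, 8.47, 6.36 and 11.2 CPM, and its ratios were 0.657 (0.576 to 0.749) and 1.76 (1.36 to 2.30). Its intervals were the widest.

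Squalene synthase, encoded by Fdft1 (chr14:63145150-63179578), commits the pathway to sterols. Fdft1 was at 27.0, 17.4, 28.2 and 21.96 CPM and was the one member lower in the KO library of both populations, at 0.651 (0.594 to 0.713) in HSCs, against 0.780 (0.676 to 0.9005) in CD41low/CD9low HSCs. Squalene epoxidase, encoded by Sqle (chr15:59315077-59331192), performs the next step and did not follow Fdft1. Sqle was at 69.8, 49.1, 34.1 and 58.7 CPM, with ratios of 0.713 (0.674 to 0.753) and 1.72 (1.54 to 1.93).

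Lanosterol synthase, the enzyme that closes the sterol rings, is encoded by Lss (chr10:76531588-76557138). Lss was at 58.3, 44.5, 47.4 and 49.0 CPM. Its ratio was 0.774 (0.730 to 0.820) in HSCs, against 1.03 (0.933 to 1.15) in CD41low/CD9low HSCs, an interval that includes 1. Cyp51 (chr5:4081145-4104746), the lanosterol demethylase, came back to the pattern of Sqle. It was at 74.6, 59.4, 44.4 and 73.1 CPM, with ratios of 0.807 (0.767 to 0.849) and 1.65 (1.49 to 1.82).

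**Figure D1:**
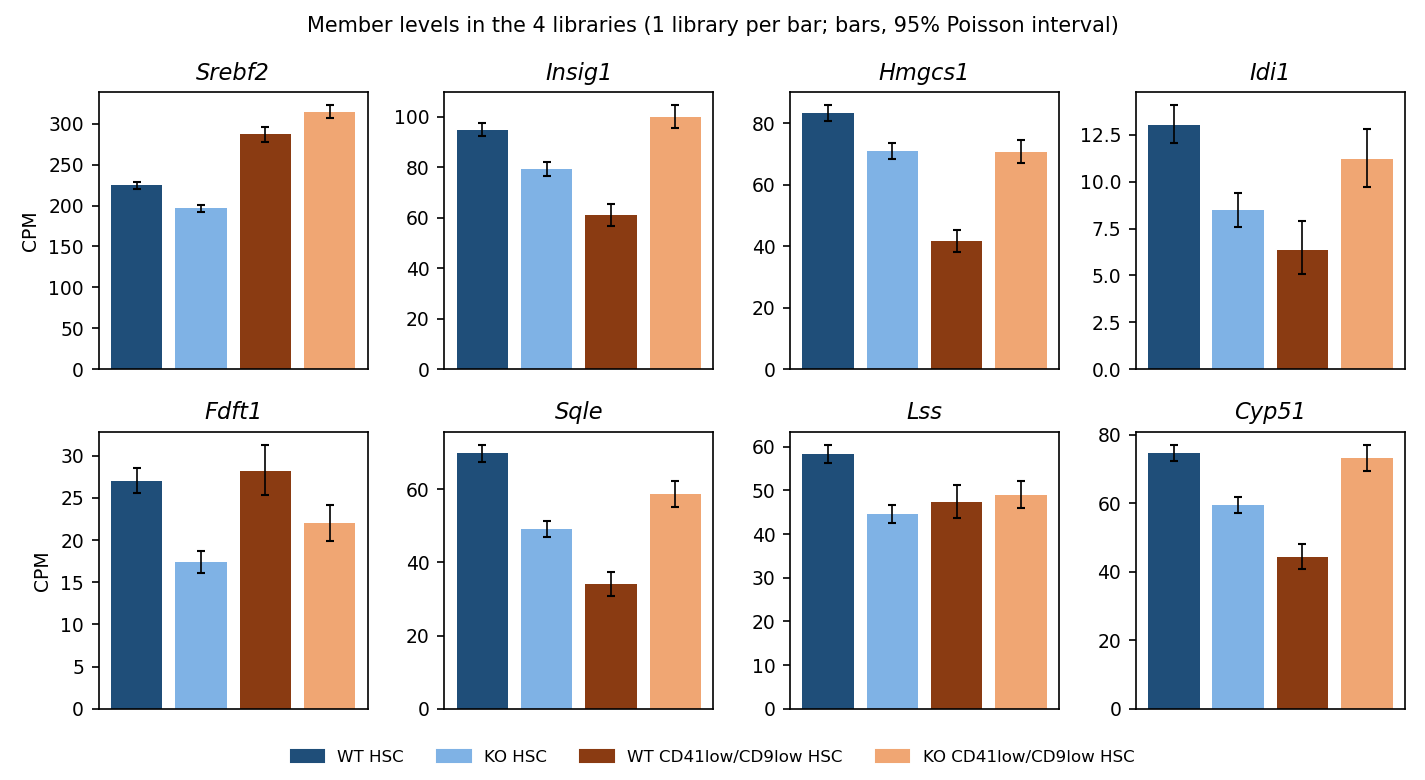
CPM of each of the 8 members (y axis, linear and starting at 0, a scale of its own per gene) in the 4 libraries, 1 bar per library, with the 95% Poisson interval of the count as error bar. For Insig1, Hmgcs1, Idi1, Sqle and Cyp51 the WT CD41low/CD9low bar is the shortest, for example 41.6 against 70.8 CPM in the KO library for Hmgcs1.

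Levels were ordered between genes per kilobase of exon, with all annotated exons of a gene merged. This length was 10787 bases for Lss and 4227 for Fdft1, and the counting intervals do not cover its choice. In CPM, without the length, Lss was above Fdft1 in every library. In WT HSCs Srebf2 (31.3 CPM per kilobase) and Insig1 (30.7) had overlapping counting intervals, followed by Hmgcs1 (18.1), Cyp51 (16.9), Sqle (12.6), Fdft1 (6.396), Lss (5.40) and Idi1 (3.72), whose neighbours did not overlap. Srebf2 was first and Idi1 last in all 4 libraries. In WT CD41low/CD9low HSCs the distance between the first 2 was wider, with Srebf2 at 40.0 and Insig1 at 19.7 CPM per kilobase, and Cyp51 (10.1) and Hmgcs1 (9.06) overlapped, as did Fdft1 (6.67) and Sqle (6.15). In the KO library of that population Insig1 was at 32.3 and Sqle at 10.6 CPM per kilobase, and Sqle was again above Fdft1 (5.196).

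Against the cutoffs, none of the 8 members was above 1.5 in HSCs, where 14.1% of 15910 genes were, and none was below 0.6, where 10.3% of the genes were. Idi1 and Fdft1 came nearest to the lower cutoff. The counting interval lay below 1 for 8 of 8 members, compared with 33.7% of all genes. The median log2 KO/WT ratio of the members was −0.34, that of all genes 0.00.

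In CD41low/CD9low HSCs 5 of 8 members were above 1.5, compared with 13.5% of 14844 genes, and none was below 0.6, compared with 12% of the genes. The interval lay above 1 for 6 of 8, Srebf2 included, compared with 31.1% of all genes, and below 1 for Fdft1. The median log2 ratio of the members was 0.72, that of all genes 0.00. All 8 had 10 counts or more in every library and so passed the filter on low counts.

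**Figure D2:**
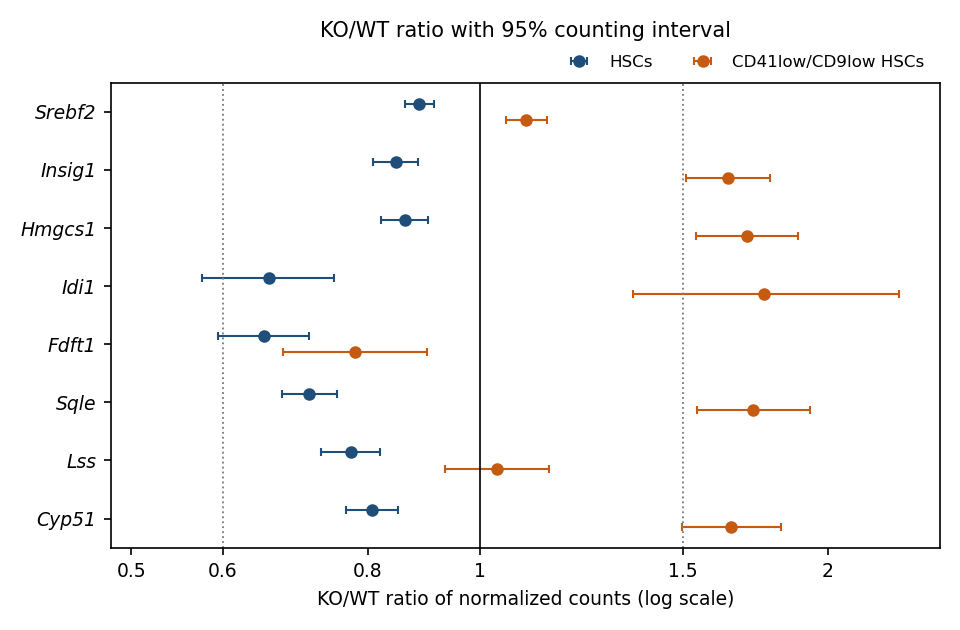
KO/WT ratio of normalized counts (x axis, log scale) of the 8 members in HSCs (blue) and CD41low/CD9low HSCs (orange), each from 1 library per genotype, with the 95% counting interval as bar. The solid line marks 1 and the dotted lines mark 0.6 and 1.5. All 8 blue points lie left of 1, from 0.651 to 0.887, and 5 orange points lie right of 1.5.

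In all, 6 members (Srebf2, Insig1, Hmgcs1, Idi1, Sqle and Cyp51) had an interval below 1 in HSCs and above 1 in CD41low/CD9low HSCs. Among the 14144 genes that passed the filter in both populations 8.07% did so, and 8.6% of the 11064 genes with at least 50 counts in every library. The distance between the log2 ratios of the populations, CD41low/CD9low HSCs minus HSCs, was 1.42 for Idi1 (95% counting interval 1.01 to 1.84), 1.27 for Sqle (1.10 to 1.45), 1.03 for Cyp51 (0.87 to 1.19), 0.98 for Hmgcs1 (0.82 to 1.14) and 0.95 for Insig1 (0.82 to 1.09). It was smaller for Lss (0.42, 0.25 to 0.59), Srebf2 (0.31, 0.24 to 0.38) and Fdft1 (0.26, 0.02 to 0.50). This difference between the populations cannot be tested, because a model that holds it has no residual degrees of freedom in 4 libraries.

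**Figure D3:**
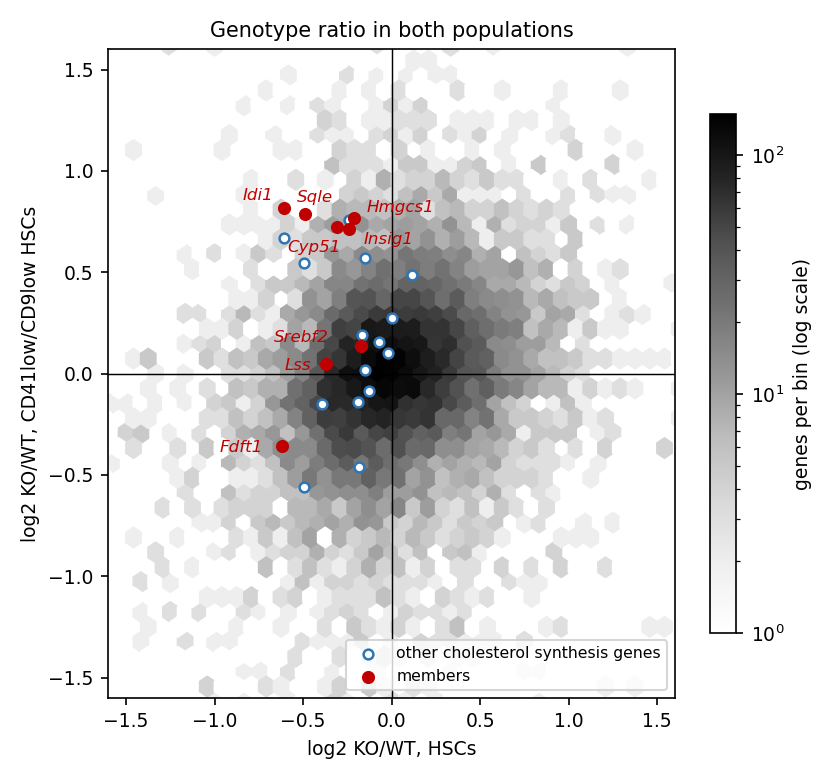
Log2 KO/WT ratio in HSCs (x axis) against CD41low/CD9low HSCs (y axis), with genes per bin in grey (log scale), the 8 members as red points and 15 other cholesterol synthesis genes as open blue points. Idi1, Sqle, Cyp51, Insig1 and Hmgcs1 sit in the upper left, with log2 ratios from −0.61 to −0.21 in HSCs and from 0.71 to 0.82 in CD41low/CD9low HSCs.

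The same values read across populations show which library stood apart. Within WT, levels in CD41low/CD9low HSCs relative to HSCs were 0.466 for Idi1, 0.467 for Sqle, 0.477 for Hmgcs1, 0.569 for Cyp51 and 0.615 for Insig1. Within KO the same 5 genes were at 1.27, 1.14, 0.956, 1.18 and 1.21. Lss was at 0.777 within WT and 1.05 within KO, Fdft1 at 0.997 and 1.21, and Srebf2 at 1.22 and 1.53. The WT CD41low/CD9low library was thus the low one of the 4 for the 5 genes, and it was also the shallowest. For Idi1 the counting interval of this library (5.05 to 7.91 CPM) overlapped that of the KO HSC library (7.61 to 9.40 CPM).

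Markers of other cells and of the cell cycle also differed between these libraries. Among CD41low/CD9low HSCs the 6 myeloid markers were all lower in KO, with a sum of 446 CPM compared with 1122 CPM in WT. In HSCs the sums were 627 CPM in KO and 565 CPM in WT. S100a8 and S100a9, from this myeloid list, were at 176 and 363 CPM in the WT CD41low/CD9low library and at 39.0 and 94.65 CPM in the KO library. None of the 6 was at 0 in any library. The 8 proliferation markers were lower in KO in both populations, with sums of 2424 (WT) and 1906 CPM (KO) in HSCs and of 1686 (WT) and 1236 CPM (KO) in CD41low/CD9low HSCs. For the 8 megakaryocyte markers the sums were 1679 (WT) and 2392 CPM (KO) in HSCs and 531 and 635 CPM in the other pair, where Gp1bb was at 0 in the WT library. These markers did not move together. In HSCs 6 had a KO/WT ratio above 1 and 2 below, and in the other pair 5 and 3. Itgb3 was at 202 (WT) and 663 CPM (KO) in HSCs, and Vwf at 206 and 126 CPM in the other pair. Sums cover the markers that passed the filter on low counts. Of the 6 erythroid markers, 6 passed in HSCs and 5 in the other pair, and they summed to 95.5 and 53.0 CPM and to 67.5 and 42.3 CPM. Of the 6 markers excluded by the gate, 4 and 3 passed, with sums of 34.4 and 23.7 CPM and of 41.3 and 31.6 CPM. The part of these cells in the members' ratios was not tested, and in such bulk libraries fewer cells of a type and less RNA per cell cannot be told apart.

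To look for a genotype effect that both populations share, all 4 libraries were fitted together in edgeR (quasi-likelihood test), with a term for population and 1 residual degree of freedom. It takes the populations as repeats, although they may come from the same mice. At an adjusted p-value under 0.05 it called 64 of 14745 genes (0.434%), 47 higher and 17 lower in KO, and none of the 8 members. No member had an unadjusted p-value under 0.05 in this fit or with DESeq2, and 1, Fdft1, did in edgeR with RLE size factors and with no filter on low counts, where no member was called either. Fdft1 came nearest, with a log2 change of −0.49 ± 0.23 (SE) and an adjusted p-value of 0.531 (edgeR), and was lower in KO in 2 of 2 populations. The 6 members with intervals on opposite sides of 1 had shared log2 changes from −0.02 ± 0.14 (Srebf2) to 0.26 ± 0.22 (Hmgcs1). For these 6 the fit averages log2 ratios of opposite sign and counts their difference as residual spread. It therefore cannot show a genotype effect that differs between the populations.

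The same fit compared CD41low/CD9low HSCs with HSCs over both genotypes and called 2797 genes (19%), 1092 higher and 1705 lower in CD41low/CD9low HSCs. Srebf2 was the one member called, higher by 0.45 ± 0.14 on the log2 scale (edgeR, adjusted p-value 0.0487, and 0.0171 to 0.0463 under the alternatives), in 2 of 2 genotypes. Hmgcs1 was at −0.56 ± 0.22 and did not pass (edgeR, adjusted p-value 0.096), but did with no filter on low counts (adjusted p-value 0.00684). Population cannot be told apart here from depth or from the set of genes used for counting. That set held 38293 genes for the HSC pair and 41214 for the CD41low/CD9low pair, and its annotation release is not given.

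Of the 15 other synthesis genes, 13 had a ratio below 1 in HSCs, 9 with an interval below 1 (33.7% of all genes). None passed a cutoff there, compared with 14.1% of all genes above 1.5 and 10.3% below 0.6. In CD41low/CD9low HSCs 2 of the 15 were above 1.5, near the share over all genes (13.5%). These were Msmo1 (1.69), the sterol methyl oxidase that acts after Cyp51, and Fdps (1.59), which makes the farnesyl diphosphate that Fdft1 uses. Msmo1 was at 45.6, 38.2, 26.5 and 44.7 CPM and Fdps at 32.6, 21.1, 20.8 and 33.0 CPM, in the order WT HSCs, KO HSCs, WT and KO CD41low/CD9low HSCs. In both genes the WT CD41low/CD9low library was the lowest, for Fdps next to the KO HSC library. The list's median log2 ratio was −0.17 in HSCs, against 0.16 in CD41low/CD9low HSCs. Intervals below 1 in HSCs and above 1 in CD41low/CD9low HSCs were found for 4 of its 15 genes, compared with 8.07% of all genes.

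Among 12 uptake genes in HSCs, Lipa, the lysosomal acid lipase that frees cholesterol from taken-up esters, was above 1.5 (1.66) and Lrp8, an apolipoprotein E receptor, below 0.6 (0.527). Of all genes 14.1% were above and 10.3% below there. Neither passed the cutoff in CD41low/CD9low HSCs, where Lipa was at 1.08 and Lrp8 at 0.737. In that population 2 others of the 12 were above 1.5, compared with 13.5% of all genes. The list's median log2 ratios were 0.06 and 0.15, closer to 0 than those of the members. Of its 12 genes, 2 had intervals below 1 in HSCs and above 1 in CD41low/CD9low HSCs, compared with 8.07% of all genes.

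The 8 other regulators of SREBP had medians of 0.02 and −0.07. Mbtps2, the protease that releases SREBP within the membrane, was the one gene past a cutoff, at 1.62 in HSCs and 1.22 in CD41low/CD9low HSCs. Of all genes 14.1% were above 1.5 in HSCs. Scap, which carries SREBP to the Golgi and was named after its values were seen, was at 0.914 and 0.946. None of these 8 regulators had intervals on opposite sides of 1 in the order seen for the 6 members, compared with 8.07% of all genes.

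Efflux and storage genes held the largest ratio of the lists in Apoe, the apolipoprotein that carries cholesterol out of cells, at 613, 908, 346 and 1057 CPM. Its ratio was 1.501 in HSCs and reached 3.06 in CD41low/CD9low HSCs, higher in KO in 2 of 2 populations. The shared genotype effect of Apoe was 1.10 ± 0.21 on the log2 scale with an adjusted p-value of 0.0534 by edgeR, while DESeq2 gave 2.1e-05 and edgeR gave 0.0518 with RLE size factors and 2.4e-11 with no filter on low counts. Nr1h3, which encodes the oxysterol receptor LXRα, was at 1.16 in HSCs and 0.249 in CD41low/CD9low HSCs, on 5.26 and 1.31 CPM in the latter. Ch25h, also below 0.6 in HSCs (0.370, 0.065 to 1.44) and named after its values were seen, had 10 and 3 counts there and 0 in both CD41low/CD9low libraries. Of 7 list genes that passed the filter in both populations, 1 had intervals in the order of the 6 members, compared with 8.07% of all genes.

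In fatty acid synthesis, which answers mainly to the related factor SREBP1, Scd1 was at 2.02 and 1.36, Elovl6 at 1.26 and 1.55 and Me1 at 0.572 and 0.370 in HSCs and CD41low/CD9low HSCs. None of its 10 genes had intervals below 1 in HSCs and above 1 in CD41low/CD9low HSCs, compared with 8.07% of all genes. On the isoprenoid branches, which use mevalonate products for other ends, Ggps1 was at 1.21 and 1.502 and Pdss1 at 1.05 and 0.489. Of the 8 genes on these branches, 2 had intervals below 1 in HSCs and above 1 in CD41low/CD9low HSCs, beside the same 8.07%. The median log2 ratios were −0.10 and −0.05 for fatty acid synthesis and 0.07 and 0.03 for the isoprenoid branches. No gene of the 6 lists passed the shared genotype test with edgeR as fitted here. With no filter on low counts Apoe was called higher in KO, and Lrp8 (adjusted p-value 0.0323) and Fads2 (0.0117, named after its values were seen) lower. For population, Stard4, Mbtps2, Rnf139, Ggps1 and Pdss1 were called lower in CD41low/CD9low HSCs (log2 −1.15 to −0.68, edgeR adjusted p-values 0.00343 to 0.0445) and Rxra higher (0.82, adjusted p-value 0.0146), of which Stard4, Rnf139 and Rxra were named after their values were seen. With DESeq2 the calls of Mbtps2 (adjusted p-value 0.0923) and Pdss1 (0.0623) were lost.

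**Figure D4:**
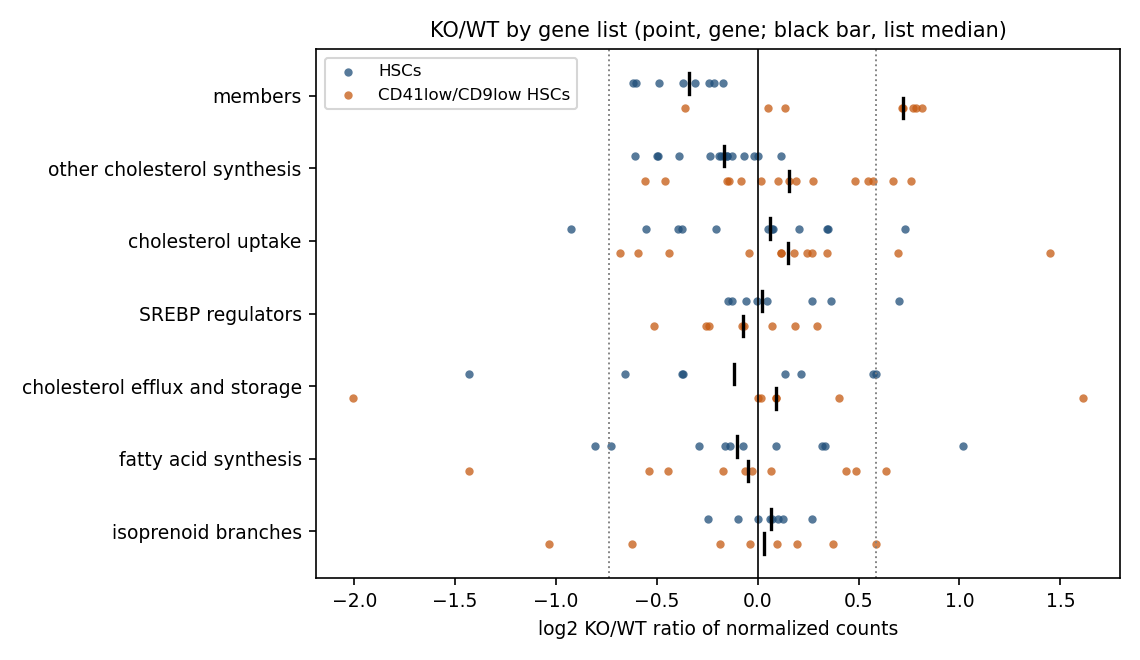
Log2 KO/WT ratio (x axis) of every gene of the members' list and of the 6 other lists (rows) in HSCs (blue) and CD41low/CD9low HSCs (orange), 1 point per gene, with a black bar at the list median and dotted lines at the cutoffs of 0.6 and 1.5. The members' medians, −0.34 and 0.72, stand further from 0 than those of the other lists.

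The members' median profile over the 4 libraries, as log2 normalized counts centred on each gene's own mean, was 0.26, −0.02, −0.47 and 0.17 in WT HSCs, KO HSCs, WT and KO CD41low/CD9low HSCs. Of 10159 other genes with at least 100 counts in every library, the closest by Euclidean distance over these 4 values included Ndufaf1 (0.076), Fopnl (0.079), Hspe1 (0.115) and Msmo1 (0.123). The synthesis gene Msmo1 held rank 5 among all genes compared. Sc5d, Fdps and Dhcr7, the first and the last named after their values were seen, held ranks 225, 233 and 249. Ndufaf1 takes part in the assembly of mitochondrial complex I and Hspe1 is a mitochondrial chaperonin. With 4 points that share their libraries this is a description of likeness.

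**Figure D5:**
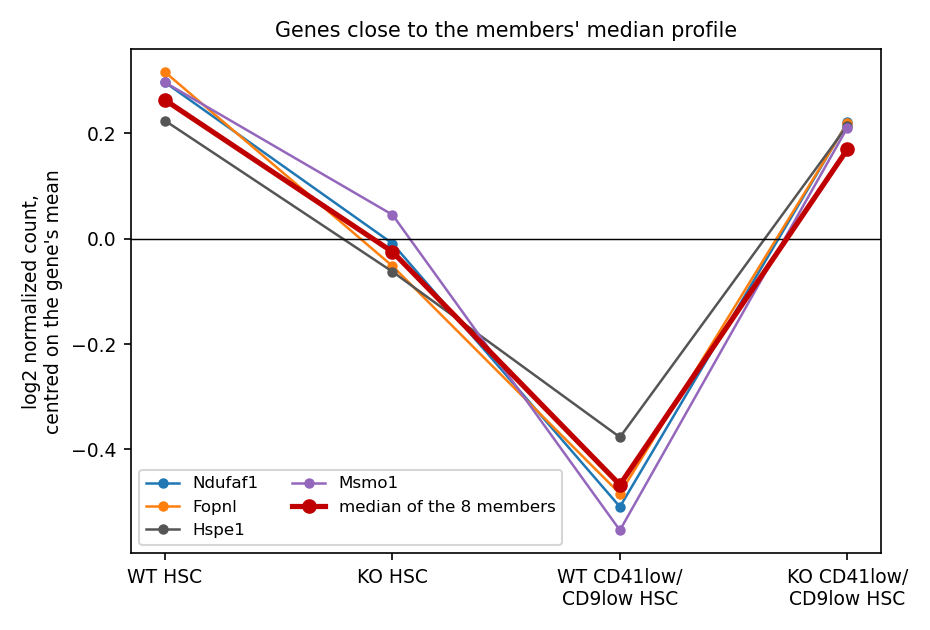
Log2 normalized counts centred on each gene's mean (y axis) in the 4 libraries (x axis) for the members' median (thick red line) and 4 genes close to it. All 5 lines are lowest in the WT CD41low/CD9low library, between −0.55 and −0.38.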

How the data were processed

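RNA-seq libraries (TruSeq Stranded mRNA) of 4 groups were analysed, 1 per group. The authors aligned reads to mm10 with TopHat2 2.0.10, used SAMtools and HTSeq, and deposited raw counts per Ensembl gene, which were used as deposited. The strand setting, HTSeq version and annotation release are not given in the sources used here, and without the strand setting reads of overlapping antisense genes cannot be told apart. Summary lines of reads outside genes were left out of library sizes and tests. Per 100 counts on genes, no-feature reads were at 80 (WT) and 105.3 (KO) in HSCs. In the CD41low/CD9low pair they were at 62.0 and 60.1. Symbols, coordinates and exon lengths came from GENCODE M21, which gave a symbol to all 8 members and 61 genes of the 6 lists.

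Normalization used size factors by the median of ratios, computed per pair, and genes with at least 10 counts in 1 library of the pair were kept. Intervals are exact Clopper-Pearson 95% for ratios, exact Poisson for levels and a normal approximation on the log scale for differences of log2 ratios. All cover counting error only, since reads carry no molecular identifiers. The 4-library fit used edgeR 4.0.16 (TMM, quasi-likelihood test, Benjamini-Hochberg adjustment) in R 4.3.3, with DESeq2 1.42.0 as alternative, and was tested on simulated data. Its 1 residual degree of freedom is the difference in genotype effect between the populations, combined with a prior taken from all genes (median prior degrees of freedom 10.3). That difference may be technical, and the p-values do not measure the variation between mice or sorts. Tables were made with Python 3.11.15, pandas 2.3.3 and scipy 1.17.1.

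Members and lists were chosen with earlier results of these data known. All members are named. From each other list the genes past a cutoff in either population were named, at most 4 by largest absolute log2 ratio, with at least 50 counts in 1 library of that pair, and by likeness the 5 closest genes, and some genes that this rule selects are not reported here. Others are stated as named after their values were seen. The alternatives were other scalings, a correction for exon length, a pseudocount of 1, other filters on low counts, another lower cutoff, RLE and DESeq2.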

Additional observations from a re-analysis of the deposited data

Results flagged for a closer look

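For 6 members the counting interval of the KO/WT ratio was below 1 in HSCs and above 1 in CD41low/CD9low HSCs. The distance between their log2 KO/WT ratios, CD41low/CD9low HSCs minus HSCs, was 0.31 for Srebf2, 0.95 for Insig1, 0.98 for Hmgcs1, 1.42 for Idi1, 1.27 for Sqle and 1.03 for Cyp51. With 1 library per group these differences between the populations were not tested, and 8.07% of all genes had intervals on the same sides of 1.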

How the results depend on the processing

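All 16 member ratios, 8 in each population, kept their side of 1 under TMM, total-count and 4-library scaling, the exon-length correction and a pseudocount of 1, and no scaling shifted the log2 ratios by more than 0.02. The exon-length correction moved 3 ratios in HSCs, Srebf2 to 0.827, Insig1 to 0.899 and Lss to 0.678. With at least 50 counts, 1431 genes were above and 792 below the cutoffs in HSCs (2248 and 1639 with at least 10). In CD41low/CD9low HSCs they were 982 and 702 (1998 and 1788). This filter also leaves fewer genes to count, and the reason for the drop was not tested. With a lower cutoff of 1/1.5 in place of 0.6, 2 members were below it in HSCs instead of 0, and 6 listed genes instead of 3 in each population. The genotype test called 71 genes higher and 33 lower with DESeq2, and 259 and 188 with no filter on low counts, against 47 and 17, and the cause was not tested. Hmgcs1 became a population call without that filter (log2 −0.57). No result reversed. No replicate could be left out, because each group has 1 library and leaving out 1 of the 4 leaves the fit no residual degree of freedom. Pairing by mouse was not possible, because marrow was pooled and the labels carry no replicate numbers. The 4-library fit compared KO with WT within populations through its population term.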
